A study of Rattus norvegicus with 8 samples.

Results

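Pineal glands of Sprague-Dawley rats taken on postnatal day 5 (P5) were compared with glands taken on embryonic day 21 (E21), shortly before birth. The comparison used 4 of the 8 RNA-seq libraries of a developmental series: 1 library at mid-day (zeitgeber time 7) and 1 at mid-night (zeitgeber time 19) for each age. The other 4 libraries, at P20 and P40, entered the filter on low values and the estimate of error. They are also quoted where a level at older ages is given. Each library was a pool of whole glands, from 13 rats (E21 mid-day), 15 rats (E21 mid-night), 17 rats (P5 mid-day) and 19 rats (P5 mid-night). No genotype or treatment differed between the groups, and the labels name no allele or agent. A library is therefore an average over many animals, and the spread between the 2 libraries of an age holds time of day as well as pool and library effects.

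The pineal gland makes melatonin at night. Its pinealocytes take up tryptophan and convert it to serotonin, and then acetylate and methylate serotonin to melatonin. These cells share a developmental origin and many genes with retinal photoreceptors, including the homeobox factors OTX2 and CRX and parts of the phototransduction cascade. In the weeks around birth pinealocytes stop dividing and differentiate, while sympathetic nerves from the superior cervical ganglia grow into the gland and begin to impose the nightly noradrenergic signal. Total RNA of the gland also holds RNA of glia, vessels, connective tissue and whatever neighbouring tissue is dissected with it. In such bulk samples, fewer cells of a type and less RNA per cell cannot be told apart.

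Levels are given as FPKM, fragments scaled to transcript length and to the mapped fragments of the library, which can be compared between genes because they are scaled to transcript length. Pairs of values name the mid-day library first and the mid-night library second. A log2 change is the limma estimate of P5 minus E21 on log2(FPKM + 1) with its standard error (SE), n = 2 libraries per age, and changes of transcripts at about 1 FPKM or less come out too small. A transcript is called higher or lower where the adjusted p (limma with Benjamini-Hochberg adjustment over all transcripts tested) is under 0.05. Because the night libraries of P20 and P40 enter the error, a gene with a large night difference at those ages has a wide SE here, and for such genes failing the test does not mean that E21 and P5 were alike. A fit to the 4 libraries of E21 and P5 alone is quoted beside some of these genes, and it has 1 residual degree of freedom. It is not quoted for others, such as Slc17a6, Per1 and Dio2, with SEs of 0.6, 0.59 and 0.97.

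Between 9245 and 9533 transcripts reached 1 FPKM in the 4 libraries. Estimated depth, relative to the deepest library of the series, was 0.52 and 0.69 at E21 and 0.93 and 0.57 at P5. The 2 E21 libraries correlated at Pearson's r = 0.9642 and the 2 P5 libraries at r = 0.9726 across transcripts, against 0.8558 to 0.8962 between the ages. Both pairs had features that moved with particular libraries. Short transcripts were uneven at E21: of the 367 tested transcripts with a genomic span below 2 kb, 11.7% were at least 2-fold apart between E21 mid-day and mid-night, against 1.66% of the 9593 longer ones, and 3.27% and 1.79% at P5. The summed level of choroid plexus markers rose from E21 mid-day to P5 mid-night. The choroid plexus is the epithelium that secretes cerebrospinal fluid beside the gland. Its most abundant transcript, transthyretin (Ttr), had 1045 and 1299 FPKM at E21 and 2889 and 17320 at P5 (log2 change 2.6 ± 0.62, limma adjusted p = 0.0294). The values of these markers stand with the results on other cell types below. Their part in the other results was not tested except where a value is given.

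Of 9960 transcripts tested, 826 were higher at P5 (8.29%) and 681 were lower (6.84%). The median log2 change over all transcripts tested was -0.044. Among the increases 562 were at least 2-fold and 139 at least 4-fold on the log2(FPKM + 1) scale, and 29 reached 8-fold. Of the decreases 336 were at least 2-fold, 27 at least 4-fold, and none of the 681 reached 8-fold on this scale, which shrinks changes of low transcripts. As folds of mean FPKM, 130 increases and 24 decreases were 8-fold or more, among the decreases Nkain3 (29.4), Bhlhe22 (16.1) and Tubb3 (14.7). Which direction held more calls depended on the scale: with a pseudocount of 5 there were 686 higher and 776 lower, with 0.1 there were 863 and 479, and after quantile normalisation 919 and 993. All 1507 called transcripts changed in the same direction at mid-day and at mid-night, and 1505 of them had no overlap between the libraries of the ages. For comparison, both P5 libraries lay above both E21 libraries for 30.4% of all transcripts tested and below for 35%. Some genes went from near absence to presence or the reverse: 179 of the higher transcripts were at or under 1 FPKM in both E21 libraries, and 111 of the lower ones were at or under 1 FPKM in both P5 libraries. The number called rested on each library: leaving out E21 mid-day gave 601, E21 mid-night 923, and the mid-day and mid-night libraries of P5 484 and 646. In these fits the left-out value is replaced through the night effect of the other 3 ages, so they also carry the night differences of P20 and P40. Where counts of a gene list without 1 library are given below, they follow this order. Shares of a list are to be read against 8.29% higher and 6.84% lower, and in the fit to 4 libraries against 11.2% and 8.43%.

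**Figure D1:**
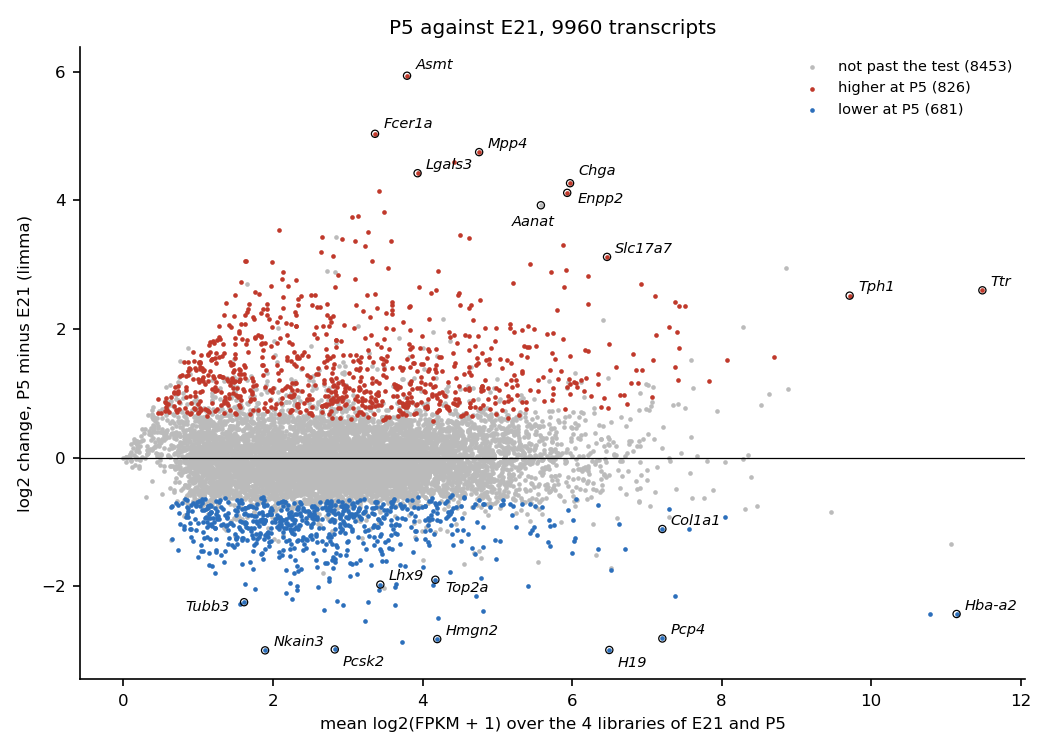
Each point is 1 of 9960 transcripts, with its mean log2(FPKM + 1) over the 4 libraries of E21 and P5 on the horizontal axis and the limma log2 change (P5 minus E21) on the vertical axis. Red points are the 826 transcripts called higher at P5, blue points the 681 called lower, and grey points did not pass the test, among them Aanat at 3.92. On this scale the increases reach further from 0 than the decreases.

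Every enzyme of the route from tryptophan to melatonin that was tested was more abundant at P5 in both libraries. Of 4 enzymes tested, 3 were called higher and the median log2 change was 3.40. Tph1, tryptophan hydroxylase, catalyses the first and rate-limiting step of serotonin synthesis and measured 369.6 and 331 FPKM at E21 and 2316 and 1740 at P5. The P5 libraries were both far above the E21 libraries, log2 change 2.52 ± 0.42, limma adjusted p = 0.0082. Ddc, the decarboxylase that completes serotonin, had 17.1 and 19.9 FPKM at E21 and 159 and 128 at P5, log2 change 2.88 ± 0.3, limma adjusted p = 0.00143. Asmt, which methylates N-acetylserotonin to melatonin, was close to absent before birth: it had 0.432 and 1.19 FPKM at E21 and 106 and 109 at P5. Its groups were separated by a fold of means of 133, the largest log2 change among the transcripts tested (log2 change 5.94 ± 0.24, limma adjusted p = 5.35e-05). Aanat, the acetyltransferase whose nightly surge sets the melatonin rhythm, had 13.5 and 9.45 FPKM at E21 and 153 and 225 at P5, with no overlap between ages and with P5 mid-night above P5 mid-day. Its estimate did not pass the test in the fit across all ages, where the night libraries of P20 and P40 enter the error (log2 change 3.92 ± 1.68, limma adjusted p = 0.156). In the fit restricted to the 4 libraries of E21 and P5 the same change had an SE of 0.28 and passed (limma adjusted p = 0.000641), as it did with separate night effects for younger and older ages (limma adjusted p = 0.000313). At E21 the order was the reverse, with mid-day above mid-night; both of these night differences rest on 1 library each and were not tested.

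Of 9 tested genes supplying the cofactors of these enzymes, tetrahydrobiopterin and S-adenosylmethionine, 2 were called higher and none lower, with a median of 0.15. Gch1, the first enzyme of tetrahydrobiopterin synthesis, measured 7.22 and 5.62 FPKM at E21 and 46.9 and 41.2 at P5, log2 change 2.61 ± 0.27, limma adjusted p = 0.00139. Pcbd1, which regenerates the cofactor after each hydroxylation, had 17.5 and 14.1 FPKM at E21 and 57.5 and 57.9 at P5, log2 change 1.81 ± 0.22, limma adjusted p = 0.00241. Pts, a later enzyme of its synthesis, and Qdpr, which recycles it, did not pass: Pts had 4.54 and 5.47 FPKM at E21 and 5.32 and 5.98 at P5 and Qdpr 12.6 and 11.3 FPKM at E21 and 14.6 and 11.7 at P5, and in both genes the ages overlapped. Mat2a, which makes S-adenosylmethionine, had 9.37 and 10.7 FPKM at E21 and 25.4 and 18.5 at P5; it did not pass the main test (limma adjusted p = 0.248) and passed with the 4 libraries alone (limma adjusted p = 0.0151). The 2 monoamine oxidases went opposite ways. Maob had 4.18 and 3.88 FPKM at E21 and 8.41 and 7.55 at P5, log2 change 0.83 ± 0.22, limma adjusted p = 0.0401, and Maoa fell, with 8.21 and 6.47 FPKM at E21 and 2.46 and 3.42 at P5, log2 change -1.09 ± 0.23, limma adjusted p = 0.0175.

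The phototransduction cascade rose as a broad group. Of 37 genes listed, 35 were in the data and 28 were tested; 17 were called higher and 0 lower, with a median log2 change of 1.77, against 8.29% higher and a median of -0.044 over all transcripts. In all 28 both P5 libraries lay above both E21 libraries. Without 1 library the count higher was 14, 19, 14 and 14. Guca1b, which activates guanylyl cyclase when calcium falls, had 17.7 and 17.7 FPKM at E21 and 213 and 157 at P5, with E21 libraries that were nearly equal (log2 change 3.3 ± 0.29, limma adjusted p = 0.000853). Gngt2, the cone transducin gamma subunit, had 48.9 and 65.7 FPKM at E21 and 337 and 321 at P5. Pde6c, the catalytic subunit of the cone phosphodiesterase, had 12.3 and 14.7 FPKM at E21 and 96.2 and 91.4 at P5. Both were several times above E21 in each P5 library, Gngt2 with log2 change 2.52 ± 0.3, limma adjusted p = 0.00237 and Pde6c with log2 change 2.71 ± 0.2, limma adjusted p = 0.000487. Grk1, the opsin kinase, had 2.09 and 2.43 FPKM at E21 and 22.8 and 20 at P5 (log2 change 2.78 ± 0.17, limma adjusted p = 0.000291). The calcium sensor Guca1a had 0.825 and 0.33 FPKM at E21 and 8.78 and 9.06 at P5 (log2 change 2.67 ± 0.27, limma adjusted p = 0.00134). Sag, the arrestin that ends the photoresponse, had 20.2 and 23.1 FPKM at E21 and 106 and 75.3 at P5 (log2 change 2 ± 0.25, limma adjusted p = 0.00276). Pdc, phosducin, which binds transducin beta-gamma, had 32.7 and 21.1 FPKM at E21 and 119.9 and 89.8 at P5 (log2 change 1.94 ± 0.48, limma adjusted p = 0.0335).

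Some transducin subunits were already abundant before birth. Gnat2, the cone transducin alpha subunit, had 302 and 261 FPKM at E21 and 630.4 and 494 at P5 (log2 change 0.99 ± 0.29, limma adjusted p = 0.0555). Its beta partner Gnb3 had 298 and 258 FPKM at E21 and 523 and 462 at P5 (log2 change 0.82 ± 0.3, limma adjusted p = 0.106). Neither passed, although the libraries did not overlap. Gngt1, the rod gamma subunit, had 47.1 and 580.2 FPKM at E21 and 2618 and 639 at P5, so E21 mid-night was near P5 mid-night, and its change did not pass (limma adjusted p = 0.161). Opn1sw, the short-wavelength cone opsin, had 2.42 and 4.15 FPKM at E21 and 20.3 and 18.4 at P5 (log2 change 2.27 ± 0.27, limma adjusted p = 0.00245). Opn1mw was listed at 0 in the 4 libraries, and rod transducin alpha (Gnat1) had 1.5 and 2.1 FPKM at E21 and 2.69 and 3.38 at P5 and did not pass (log2 change 0.53 ± 0.19, limma adjusted p = 0.101).

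Genes of the photoreceptor outer segment, ribbon synapse and retinoid handling rose in part. Of 18 tested, 8 were higher, 1 was lower, and the median was 1.06. Mpp4, a scaffold of the photoreceptor presynaptic membrane, had 3.93 and 4.51 FPKM at E21 and 142 and 137 at P5, a fold of means of 33 (log2 change 4.75 ± 0.19, limma adjusted p = 5.35e-05). Rbp3, the interphotoreceptor retinoid-binding protein, had 80.8 and 112 FPKM at E21 and 334 and 292 at P5 (log2 change 1.71 ± 0.29, limma adjusted p = 0.00825). Prph2, a structural protein of disc rims, had 24.6 and 40.5 FPKM at E21 and 200 and 144 at P5 (log2 change 2.39 ± 0.4, limma adjusted p = 0.00813). Tulp1, a photoreceptor trafficking protein, had 19.6 and 26.2 FPKM at E21 and 166 and 132 at P5 (log2 change 2.65 ± 0.24, limma adjusted p = 0.000896). In contrast Impg2, a matrix proteoglycan of photoreceptors, had 101 and 105 FPKM at E21 and 118 and 99.2 at P5, so a high level was present before birth and the ages overlapped. Prom1, prominin-1, which shapes disc membranes and also marks progenitors, went the other way, with 23.4 and 23.3 FPKM at E21 and 5.81 and 7.52 at P5 for 1 of its 2 transcripts (log2 change -1.68 ± 0.21, limma adjusted p = 0.00293).

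Promoter windows of these genes were read from RefSeq (build GRCr8), 250 bases before to 50 bases after the annotated start. They are shown for Aanat and for the 3 genes with the largest called increases whose window held TAATCC, the core of the CRX and OTX2 recognition site, on either strand. Capitals mark TAATCC or its reverse complement GGATTA, and the start site lies after base 250. All sequences are written 5′ to 3′ on the strand of the gene.
Aanat (chr10:102326073-102326372, plus strand): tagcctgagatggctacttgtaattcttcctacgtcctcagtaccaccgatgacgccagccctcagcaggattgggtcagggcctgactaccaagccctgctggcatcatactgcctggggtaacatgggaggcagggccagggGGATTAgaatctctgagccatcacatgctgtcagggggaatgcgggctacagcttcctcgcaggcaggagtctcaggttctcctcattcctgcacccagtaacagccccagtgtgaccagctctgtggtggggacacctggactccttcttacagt
Guca1a (chr9:21086392-21086691, plus strand): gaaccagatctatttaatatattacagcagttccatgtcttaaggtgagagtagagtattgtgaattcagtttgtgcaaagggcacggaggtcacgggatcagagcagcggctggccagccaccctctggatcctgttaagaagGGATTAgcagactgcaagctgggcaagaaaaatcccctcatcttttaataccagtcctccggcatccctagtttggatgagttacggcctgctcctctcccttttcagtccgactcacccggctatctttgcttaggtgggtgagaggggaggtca
Prph2 (chr9:21579025-21579324, minus strand): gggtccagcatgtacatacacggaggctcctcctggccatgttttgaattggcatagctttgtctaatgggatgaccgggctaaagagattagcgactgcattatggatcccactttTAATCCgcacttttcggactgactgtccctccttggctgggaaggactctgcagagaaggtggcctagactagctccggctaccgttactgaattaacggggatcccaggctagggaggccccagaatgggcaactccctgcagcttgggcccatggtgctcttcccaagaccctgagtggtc
Opn1sw (chr4:58945776-58946075, minus strand): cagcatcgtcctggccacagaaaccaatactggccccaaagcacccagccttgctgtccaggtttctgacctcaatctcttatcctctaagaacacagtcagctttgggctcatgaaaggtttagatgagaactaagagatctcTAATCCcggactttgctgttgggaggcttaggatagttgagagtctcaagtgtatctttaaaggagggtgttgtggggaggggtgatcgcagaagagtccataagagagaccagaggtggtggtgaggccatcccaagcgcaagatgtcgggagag
The motif began at -106 relative to the start in Aanat, Guca1a and Opn1sw, and at -133 in Prph2. Among the 50 tested genes of the melatonin enzyme, phototransduction and photoreceptor lists, 37 had a window in the table and 11 of these (29.7%) held the motif, against 7.11% of all 27457 promoter windows. Among those called higher it was 7 of 22 (31.8%). Of the other motifs searched in the 37 windows and in all windows, CCAAT was in 37.8% against 37.7%, TTTGAA in 16.2% against 18.1%, TATAAA in 8.11% against 14.3%, and TGACG in 8.11% against 22%. No test was made, and a match describes the letters, not binding.

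Transcription factors of the pineal and photoreceptor lineage went both ways. Of 15 tested, 2 were higher, 6 lower, and the median was -0.63. Otx2, which specifies the lineage, had 274 and 267 FPKM at E21 and 173 and 176 at P5 (log2 change -0.63 ± 0.27, limma adjusted p = 0.161). Crx, which acts downstream of it, had 116 and 107 FPKM at E21 and 152 and 122 at P5, with a log2 change of 0.29 ± 0.34 that did not pass and was -0.07 after quantile normalisation. Neurod1 had 140.4 and 133 FPKM at E21 and 136 and 104 at P5 and did not pass, while its relative Neurod4 had 213 and 200.3 FPKM at E21 and 122 and 114 at P5 (log2 change -0.8 ± 0.22, limma adjusted p = 0.0478), a call that was lost with the 4 libraries alone (limma adjusted p = 0.0997). The factors that rose were Pax4, with 1.31 and 1.14 FPKM at E21 and 10.2 and 9.33 at P5 (log2 change 2.27 ± 0.28, limma adjusted p = 0.00264), and the LIM homeobox factor Lhx4, with 41 and 49.1 FPKM at E21 and 108 and 103 at P5 (log2 change 1.21 ± 0.31, limma adjusted p = 0.0379). Those that fell include factors needed early in pineal formation. Lhx9 had 27.7 and 15 FPKM at E21 and 4.88 and 4.06 at P5 (log2 change -1.98 ± 0.25, limma adjusted p = 0.00281) and Pax6 20.9 and 14.1 FPKM at E21 and 7 and 6.02 at P5 (log2 change -1.28 ± 0.21, limma adjusted p = 0.00745), and in both each P5 library lay under the lower E21 library. Prdm1, a repressor that guides photoreceptor fate, had 5.08 and 5.56 FPKM at E21 and 0.985 and 1.24 at P5 (log2 change -1.58 ± 0.17, limma adjusted p = 0.0018). Nrl, the rod determinant, had 2.74 and 4.26 FPKM at E21 and 0.851 and 1.58 at P5 (log2 change -1.02 ± 0.21, limma adjusted p = 0.0181). Isl1 was under the level needed for a test and had 2.09 and 0.922 FPKM at E21 and 0.158 and 0.0755 at P5. Without 1 library the count lower was 3, 3, 2 and 2.

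**Figure D2:**
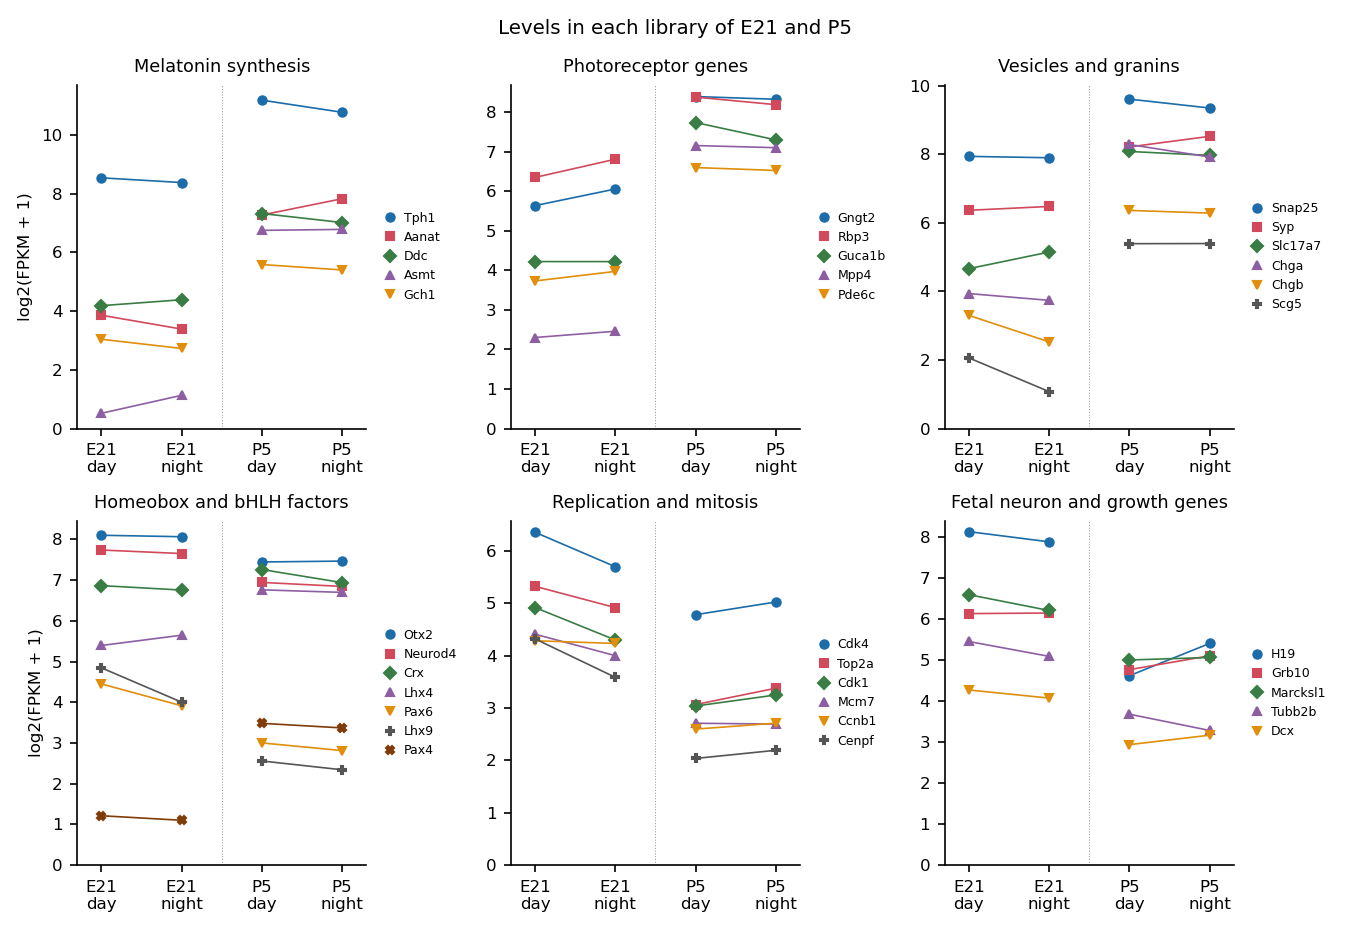
Each panel shows log2(FPKM + 1) of named genes in the 4 libraries, with lines joining the mid-day and mid-night library of an age. Melatonin, photoreceptor and vesicle genes sit higher at P5 in both libraries, replication and fetal neuron genes sit lower, and the transcription factors move in different directions, with Pax4 up and Lhx9 down.

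The secretory machinery rose along with the photoreceptor genes. Of 28 tested genes of synaptic vesicles and ribbon exocytosis, 12 were higher and 0 lower, with a median of 0.76; without 1 library the count was 9, 9, 6 and 7. Snap25, a core fusion protein, had 245 and 238 FPKM at E21 and 782 and 654 at P5 (log2 change 1.56 ± 0.32, limma adjusted p = 0.0164). The vesicle protein Syp, synaptophysin, had 81.6 and 88.3 FPKM at E21 and 297 and 368 at P5 (log2 change 1.95 ± 0.28, limma adjusted p = 0.00458). Slc17a7, which loads glutamate into vesicles, had 24.4 and 34.5 FPKM at E21 and 271 and 250 at P5 (log2 change 3.12 ± 0.27, limma adjusted p = 0.000843). Its paralog Slc17a6 had 99.7 and 83.1 FPKM at E21 and 60.8 and 55.4 at P5 and did not pass, so Slc17a6 was the more abundant of the pair at E21 and Slc17a7 at P5. Cplx3, a complexin of ribbon synapses, had 44.1 and 52.2 FPKM at E21 and 183 and 149 at P5 (log2 change 1.76 ± 0.28, limma adjusted p = 0.00677). Cacna1f, the calcium channel of photoreceptor terminals, had 12.4 and 16.8 FPKM at E21 and 46.3 and 42.1 at P5 (log2 change 1.55 ± 0.2, limma adjusted p = 0.00326). The active zone scaffolds Bsn and Pclo did not pass. Bsn had 2.28 and 2.77 FPKM at E21 and 3.62 and 2.96 at P5, and Pclo had 0.942 and 1.27 FPKM at E21 and 1.28 and 1.16 at P5.

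Granins, the acidic proteins of dense-core granules, rose by up to 4.27 on the log2 scale. In this list of prohormone convertases and granins 6 of 13 tested members were higher and 2 were lower. Chga had 14.3 and 12.4 FPKM at E21 and 312 and 242 at P5 (log2 change 4.27 ± 0.25, limma adjusted p = 0.000291). Chgb had 8.87 and 4.78 FPKM at E21 and 81.5 and 77.1 at P5 (log2 change 3.41 ± 0.26, limma adjusted p = 0.000517). Scg2 had 2.21 and 1.2 FPKM at E21 and 21.5 and 32.2 at P5 (log2 change 3.36 ± 0.47, limma adjusted p = 0.00436). Scg5, the chaperone of the convertase PCSK2, had 3.18 and 1.11 FPKM at E21 and 41.1 and 41.2 at P5 (log2 change 3.83 ± 0.28, limma adjusted p = 0.000487). Pcsk2 itself fell, with 23.4 and 15.3 FPKM at E21 and 1.65 and 1.4 at P5 and no overlap (log2 change -2.98 ± 0.21, limma adjusted p = 0.000487), the opposite direction to its chaperone. Somatostatin (Sst) was the other member that fell, with 3.87 and 4.36 FPKM at E21 and 2.3 and 1.07 at P5 (log2 change -0.97 ± 0.23, limma adjusted p = 0.0279).

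Ion transport changed in a similar way. Among 11 pump and chloride transporter genes 5 were higher and 0 lower, with a median of 0.98 and counts of 3, 3, 4 and 2 higher without 1 library. Slc12a5, the KCC2 transporter that lowers chloride in mature neurons, had 9.01 and 13.8 FPKM at E21 and 52.7 and 38.2 at P5 (log2 change 1.91 ± 0.28, limma adjusted p = 0.00523), whereas Slc12a2, the inward NKCC1 transporter, had 18.5 and 20.2 FPKM at E21 and 24.1 and 40 at P5 and did not pass. The sodium pump subunit Atp1b2 had 127 and 176 FPKM at E21 and 342 and 345 at P5 (log2 change 1.2 ± 0.29, limma adjusted p = 0.0323). Atp1b1, a subunit that the choroid plexus also expresses, had 9.23 and 15.1 FPKM at E21 and 28.1 and 76 at P5 (log2 change 1.88 ± 0.4, limma adjusted p = 0.0185). Its level was highest in the P5 mid-night library, as were those of the choroid plexus markers Ttr, Enpp2, Mfrp, Sostdc1 and Folr1. Any part of the choroid plexus in this change was not tested. Of 25 voltage-gated channel genes 7 were higher and 2 lower (without 1 library 4, 5, 3 and 4 higher). Hcn2, a channel carrying the hyperpolarisation-activated current, had 10.4 and 16.5 FPKM at E21 and 59.2 and 53.8 at P5 (log2 change 2.02 ± 0.25, limma adjusted p = 0.00279). The potassium channel Kcnd2 had 14.4 and 12.1 FPKM at E21 and 38.8 and 27.1 at P5 (log2 change 1.23 ± 0.21, limma adjusted p = 0.00897). Among 18 glutamate, GABA and acetylcholine receptor genes 3 were higher and 2 lower (without 1 library 0, 1, 0 and 1 higher). The nicotinic subunit Chrnb4 had 38.5 and 35.5 FPKM at E21 and 79.8 and 69.1 at P5 (log2 change 0.99 ± 0.21, limma adjusted p = 0.0183). Chrna3, with which it forms ganglion-type receptors, had 4.18 and 2.66 FPKM at E21 and 7.46 and 5.73 at P5 (log2 change 0.79 ± 0.2, limma adjusted p = 0.0356). Grm6, the metabotropic receptor of retinal ON bipolar cells, fell, with 31.1 and 38.9 FPKM at E21 and 4.97 and 2.99 at P5 (log2 change -2.87 ± 0.24, limma adjusted p = 0.000722), and Grm4 with 2.89 and 3.3 FPKM at E21 and 0.872 and 0.582 at P5 (log2 change -1.25 ± 0.18, limma adjusted p = 0.00498).

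Genes known for their night rise in the adult gland were in part already raised at P5. Of 22 tested, 3 were called higher and 0 lower, with a median of 1.12, and in 16 both P5 libraries lay above both E21 libraries (30.4% of all transcripts did). With the 4 libraries alone 13 of the 22 were higher and 0 lower, against 11.2% and 8.43% of all transcripts. Drd4, the dopamine receptor of the gland, had 1.2 and 1.35 FPKM at E21 and 32.1 and 26.7 at P5, so both P5 libraries were high and the mid-night library was the lower of the pair (log2 change 3.74 ± 0.79, limma adjusted p = 0.0194). Nptx1, a neuronal pentraxin, had 9.47 and 8.39 FPKM at E21 and 52.4 and 48.9 at P5 (log2 change 2.38 ± 0.59, limma adjusted p = 0.0342). Pde4b, a cyclic AMP phosphodiesterase, had 0.918 and 0.738 FPKM at E21 and 8.74 and 12.9 at P5 (log2 change 2.67 ± 0.65, limma adjusted p = 0.0322). Nr4a1, an orphan nuclear receptor, had 2.82 and 2.97 FPKM at E21 and 13.1 and 11.6 at P5. Dusp1, a MAP kinase phosphatase, had 1.86 and 2.37 FPKM at E21 and 9.41 and 9.39 at P5. These 2 did not pass (limma adjusted p = 0.248 and 0.351) and passed with the 4 libraries alone (limma adjusted p = 0.00154 and 0.00172). The same held for Atp7b, a copper transporter, with 1.59 and 1.25 FPKM at E21 and 10.3 and 27.4 at P5 (limma adjusted p = 0.18, and 0.00236 with the 4 libraries). Dio2, which activates thyroid hormone, had 0.444 and 0.325 FPKM at E21 and 0.325 and 0.573 at P5, and its ages overlapped. The count of calls in this list was 5, 0, 0 and 1 without 1 library.

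Few adrenergic and cyclic AMP signalling genes passed the test across all ages. Of 25 genes tested, 1 was higher (Pde4b) and 1 lower (Adcy8), 4% each way. With the 4 libraries alone 8 were higher and 1 lower, and in 14 of the 25 both P5 libraries lay above both E21 libraries (30.4% of all transcripts did). Adrb1, the beta receptor through which noradrenaline drives melatonin synthesis, had 10.9 and 9.12 FPKM at E21 and 18.6 and 18.7 at P5 (log2 change 0.84 ± 0.24, limma adjusted p = 0.0525); it passed with the 4 libraries alone (limma adjusted p = 0.0183). Adra1b, the alpha receptor that potentiates this response, had 27.4 and 31.7 FPKM at E21 and 43.2 and 43.3 at P5 and did not pass. Among 16 circadian clock genes 2 were higher (12.5%) and 0 lower, and without 1 library 2, 1, 1 and 1 were higher. Nr1d1, the REV-ERB alpha repressor, had 5.42 and 5.68 FPKM at E21 and 20.6 and 19.5 at P5 for 1 of its 2 transcripts (log2 change 1.68 ± 0.17, limma adjusted p = 0.00139). Npas2, a CLOCK paralog, had 5.4 and 5.21 FPKM at E21 and 13.7 and 11.8 at P5 (log2 change 1.13 ± 0.26, limma adjusted p = 0.0276). Per1 had 5.24 and 6.15 FPKM at E21 and 7.06 and 8.98 at P5 and Per2 2 and 2.29 FPKM at E21 and 1.39 and 1.95 at P5, and neither passed. With the 4 libraries alone 4 of the 16 clock genes were higher and 0 lower. Of 15 immediate early genes only Fos was called in the fit across all ages, with 1.17 and 2.08 FPKM at E21 and 8.9 and 6.72 at P5 (log2 change 1.76 ± 0.3, limma adjusted p = 0.00899), and 0 were lower. With the 4 libraries alone 5 of the 15 were higher and 1 lower.

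DNA replication and mitosis genes had the largest share of falls (79.6%) among the lists. Of 56 genes listed, 49 were tested; 39 were lower at P5 and 0 higher, with a median log2 change of -1.14, against 6.84% lower over all transcripts. In 47 of the 49 both P5 libraries lay below both E21 libraries. Without 1 library the count lower was 23, 34, 11 and 28. Cdk4, a G1 kinase and the most abundant called member, had 81 and 51 FPKM at E21 and 26.5 and 31.6 at P5 (log2 change -1.12 ± 0.23, limma adjusted p = 0.0165). Top2a, the topoisomerase of dividing cells, had 39.1 and 29.2 FPKM at E21 and 7.38 and 9.4 at P5 (log2 change -1.9 ± 0.22, limma adjusted p = 0.00209). Cdk1, the mitotic kinase, had 29.3 and 18.7 FPKM at E21 and 7.21 and 8.51 at P5 (log2 change -1.47 ± 0.24, limma adjusted p = 0.00699). Ube2c, a ubiquitin-conjugating enzyme of mitotic exit, had 41 and 11.3 FPKM at E21 and 2.86 and 2.92 at P5, with the E21 libraries several times apart (log2 change -2.55 ± 0.46, limma adjusted p = 0.0103). Replicative helicase subunits moved together, Mcm7 with 20.3 and 15 FPKM at E21 and 5.54 and 5.47 at P5 (log2 change -1.5 ± 0.24, limma adjusted p = 0.00674) and Mcm5 with 10.3 and 8.85 FPKM at E21 and 2.88 and 2.93 at P5 (log2 change -1.43 ± 0.2, limma adjusted p = 0.00458). Among those that did not pass, the G1 cyclin Ccnd1 had 3.88 and 5.05 FPKM at E21 and 3.4 and 4.88 at P5. Its relative Ccnd2 had 59.7 and 49.2 FPKM at E21 and 46.1 and 49 at P5. Tyms, thymidylate synthase, had 12.1 and 7.19 FPKM at E21 and 9.8 and 9.63 at P5. At P20 Top2a had 0.44 and 0.611 FPKM and at P40 0.423 and 0.579 FPKM, under both P5 libraries.

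Promoter windows are shown for the 3 genes of this list with the largest called falls whose window held both CCAAT, the box bound by NF-Y, and TTTGAA, the core of the cell cycle homology region at which the DREAM complex represses genes in resting cells. Capitals mark either motif or its reverse complement (ATTGG and TTCAAA), and the start site again lies after base 250 of each RefSeq window (GRCr8).
Top2a (chr10:84473044-84473343, minus strand): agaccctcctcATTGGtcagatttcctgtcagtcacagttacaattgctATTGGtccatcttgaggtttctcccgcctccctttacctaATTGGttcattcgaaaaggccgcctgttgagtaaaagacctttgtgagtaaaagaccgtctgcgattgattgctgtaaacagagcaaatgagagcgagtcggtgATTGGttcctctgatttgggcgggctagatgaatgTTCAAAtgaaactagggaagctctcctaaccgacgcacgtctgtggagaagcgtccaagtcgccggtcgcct
Cenpf (chr13:103760837-103761136, minus strand): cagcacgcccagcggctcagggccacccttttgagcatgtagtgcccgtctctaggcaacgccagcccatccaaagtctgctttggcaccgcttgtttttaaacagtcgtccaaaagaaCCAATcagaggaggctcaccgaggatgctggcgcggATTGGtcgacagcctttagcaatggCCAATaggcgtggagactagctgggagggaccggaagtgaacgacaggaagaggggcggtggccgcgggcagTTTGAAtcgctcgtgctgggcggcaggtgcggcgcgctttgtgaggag
Nusap1 (chr3:127057045-127057344, plus strand): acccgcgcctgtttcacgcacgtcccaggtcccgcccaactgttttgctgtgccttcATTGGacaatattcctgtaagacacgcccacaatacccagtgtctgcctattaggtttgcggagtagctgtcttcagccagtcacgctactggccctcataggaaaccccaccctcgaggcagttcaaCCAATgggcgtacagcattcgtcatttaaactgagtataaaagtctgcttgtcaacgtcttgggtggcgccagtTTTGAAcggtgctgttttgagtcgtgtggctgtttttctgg
In Top2a CCAAT boxes began at -239, -201, -161 and -57 relative to the start, and TTTGAA at -22. Cenpf had 3 CCAAT boxes and Nusap1 had 2, and TTTGAA began at base 3 and base 10 after the start. Of the 28 called members with a window, 20 (71.4%) held CCAAT and 12 (42.9%) held TTTGAA. Among all 36 tested members with a window, called or not, 26 (72.2%) held CCAAT and 13 (36.1%) held TTTGAA. Over all 27457 windows these shares were 37.7% and 18.1%. The TAATCC motif was in 1 of the 28 (3.57%), TATAAA in 1 (3.57%), and TGACG in 9 (32.1%).

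Chromatin genes of dividing cells followed, with 9 of 18 tested lower and 0 higher and a median of -0.76. Hmgn2, a nucleosome-binding protein, had 86.1 and 26.3 FPKM at E21 and 3.69 and 9.14 at P5 (log2 change -2.82 ± 0.57, limma adjusted p = 0.0161), and again E21 mid-day was the higher of the pair. Dnmt1, the maintenance DNA methyltransferase, had 14.1 and 14.4 FPKM at E21 and 7.9 and 7.41 at P5 (log2 change -0.82 ± 0.18, limma adjusted p = 0.0223). Lmnb1, a nuclear lamin, had 33.2 and 30 FPKM at E21 and 13 and 14.9 at P5 (log2 change -1.12 ± 0.23, limma adjusted p = 0.0173). Ezh2, the Polycomb methyltransferase, had 14.9 and 14 FPKM at E21 and 5.39 and 4.26 at P5 (log2 change -1.42 ± 0.2, limma adjusted p = 0.00467). The de novo methyltransferase Dnmt3a had 7.6 and 9.43 FPKM at E21 and 6.1 and 6.42 at P5 for 1 of its 2 transcripts and did not pass. Without 1 library the count lower was 3, 6, 2 and 6.

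Progenitor and immature neuron genes were lower too. Of 18 neural progenitor and Notch pathway genes 6 were lower and 0 higher. Id2, an inhibitor of bHLH factors, had 77.9 and 33.9 FPKM at E21 and 12 and 15 at P5 (log2 change -1.87 ± 0.33, limma adjusted p = 0.0105). The Notch1 receptor had 6.39 and 7.51 FPKM at E21 and 3.75 and 3.41 at P5 (log2 change -0.79 ± 0.19, limma adjusted p = 0.0276). Hes1, the classical Notch target, had 4.75 and 4.17 FPKM at E21 and 2.03 and 3.21 at P5, and nestin (Nes) 4.01 and 5.53 FPKM at E21 and 3.15 and 3.27 at P5; neither passed. Of 21 immature neuron genes 11 were lower and 1 higher, with a median of -0.92. Dcx, doublecortin, had 18.2 and 15.7 FPKM at E21 and 6.63 and 7.95 at P5 (log2 change -1.12 ± 0.19, limma adjusted p = 0.00869). Tubb3, the neuronal beta tubulin, had 4.06 and 7.8 FPKM at E21 and 0.351 and 0.458 at P5 (log2 change -2.25 ± 0.25, limma adjusted p = 0.00177). Marcksl1, an actin regulator, had 95 and 72.4 FPKM at E21 and 30.9 and 32.2 at P5 (log2 change -1.37 ± 0.28, limma adjusted p = 0.0173). The 1 that rose was Igsf9, an adhesion molecule, with 2.19 and 2.45 FPKM at E21 and 14 and 12.6 at P5 (log2 change 2.11 ± 0.19, limma adjusted p = 0.000888). Map1b and Ncam1, also used as markers of young neurons, did not pass. Map1b had 83.9 and 81.8 FPKM at E21 and 101 and 89.9 at P5, and Ncam1 had 45.8 and 42.6 FPKM at E21 and 46 and 40 at P5. The counts lower without 1 library were 3, 5, 2 and 3 for progenitor genes and 7, 9, 2 and 4 for immature neuron genes.

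Tubulin isotypes went both ways. Tuba4a, an alpha tubulin of mature cells, had 5.83 and 5.77 FPKM at E21 and 73.4 and 74.3 at P5 (log2 change 3.46 ± 0.34, limma adjusted p = 0.00125) and was the only 1 of 10 tested isotypes to rise. Tubb2b, mutated in cortical malformations, had 42.5 and 32.9 FPKM at E21 and 11.8 and 8.69 at P5 (log2 change -1.79 ± 0.17, limma adjusted p = 0.00125). Tubb5, the most abundant isotype in every one of these libraries, had 385 and 345 FPKM at E21 and 202 and 180.4 at P5 (log2 change -0.93 ± 0.26, limma adjusted p = 0.0471). Axon guidance and adhesion genes were lower in 9 of 30 and higher in 1, with 6, 5, 4 and 5 lower without 1 library. L1cam, an adhesion molecule of growing axons, had 9.21 and 7.22 FPKM at E21 and 1.4 and 1.36 at P5 (log2 change -1.95 ± 0.2, limma adjusted p = 0.00139). Sema6d, a transmembrane semaphorin, had 23.8 and 20.7 FPKM at E21 and 6.19 and 6.38 at P5 (log2 change -1.67 ± 0.18, limma adjusted p = 0.00176). The plexin Plxna2 had 10.2 and 10.2 FPKM at E21 and 4.61 and 3.74 at P5 (log2 change -1.12 ± 0.18, limma adjusted p = 0.00708). Ntf3, the neurotrophin NT-3, had 17.8 and 16 FPKM at E21 and 8.08 and 7.17 at P5 (log2 change -1.05 ± 0.2, limma adjusted p = 0.0118) and was the only called member of 7 neurotrophin genes. The guidance cues Sema3a and Efna5 did not pass. Sema3a had 14.5 and 11.2 FPKM at E21 and 12 and 12.6 at P5, and Efna5 had 42.7 and 31.6 FPKM at E21 and 36.5 and 35.3 at P5.

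**Figure D3:**
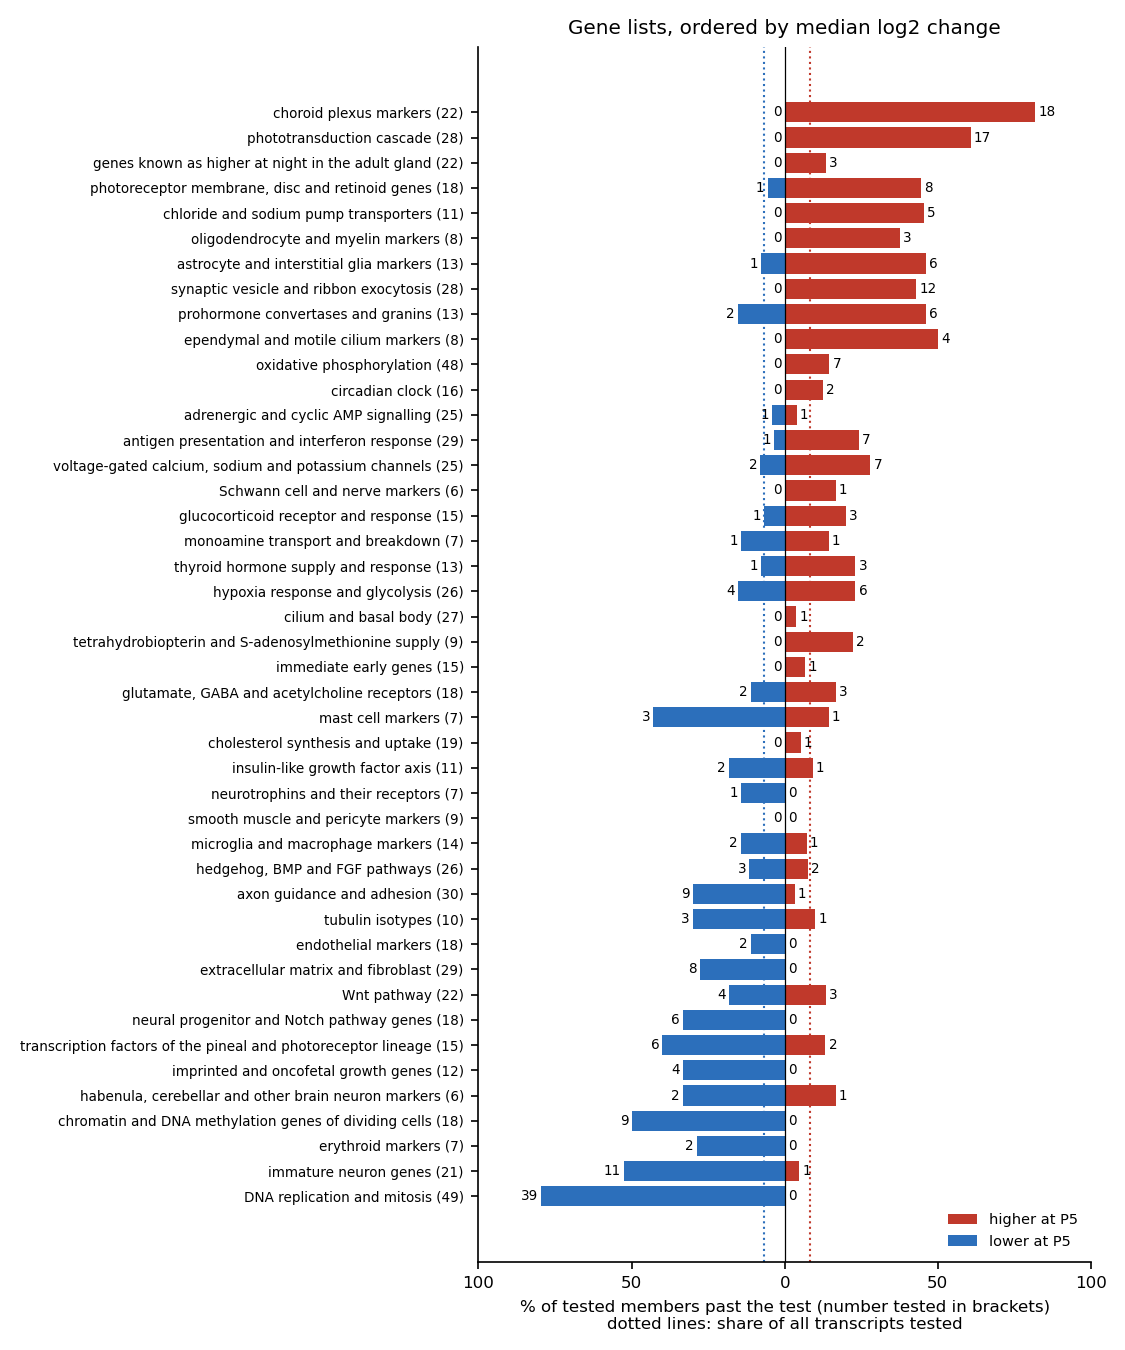
Bars show the percentage of tested members of each gene list called higher (red, to the right) or lower (blue, to the left) at P5, with the number of calls at the bar's end and the number tested in brackets. The 44 lists with 6 or more tested members are ordered by median log2 change, and dotted lines mark the shares over all transcripts (8.29% and 6.84%). Choroid plexus and phototransduction lists stand at the top, DNA replication and mitosis at the bottom.

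Fetal growth genes fell unevenly. Of 12 imprinted and oncofetal genes 4 were lower and 0 higher, and without 1 library 1, 2, 1 and 2 were lower. H19, an imprinted noncoding RNA, had 277 and 233 FPKM at E21 and 23.4 and 41.1 at P5 (log2 change -2.99 ± 0.27, limma adjusted p = 0.000896), a fold of means of 7.91 in favour of E21. Grb10, an imprinted brake on insulin receptors, had 68.7 and 69.4 FPKM at E21 and 26.1 and 33.2 at P5 (log2 change -1.2 ± 0.23, limma adjusted p = 0.0139). Dlk1, a Notch-like ligand, had 3.47 and 3.18 FPKM at E21 and 1.15 and 1.5 at P5 (log2 change -0.9 ± 0.2, limma adjusted p = 0.0213). Igf2, which shares a locus with H19, had 119 and 158 FPKM at E21 and 72.1 and 132 at P5 for 1 of its 3 transcripts, with overlapping ages. Igf1, the postnatal growth factor, had 45.1 and 40.4 FPKM at E21 and 12.1 and 17.1 at P5 for 1 of its 4 transcripts (log2 change -1.5 ± 0.29, limma adjusted p = 0.0129), and its binding proteins split, Igfbp7 rising from 19 and 20.5 to 56.6 and 60.2 FPKM (log2 change 1.52 ± 0.22, limma adjusted p = 0.00524) and Igfbp3 falling from 10.5 and 9.7 to 4.65 and 5.3 FPKM (log2 change -0.89 ± 0.18, limma adjusted p = 0.0173).

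Morphogen pathway genes were called in both directions, in the Wnt list above the shares over all transcripts (8.29% higher and 6.84% lower). In the Wnt pathway 3 of 22 were higher (13.6%) and 4 lower (18.2%), and without 1 library 0, 0, 0 and 1 were higher and 1, 2, 1 and 4 lower. The receptor Fzd4 had 5.22 and 6.18 FPKM at E21 and 19.2 and 15.7 at P5 (log2 change 1.46 ± 0.31, limma adjusted p = 0.0201). Its relative Fzd1 had 8.7 and 10.3 FPKM at E21 and 3.1 and 4.71 at P5 (log2 change -1.11 ± 0.2, limma adjusted p = 0.0112). The secreted inhibitor Dkk2 had 2.87 and 3.58 FPKM at E21 and 0.493 and 0.841 at P5 (log2 change -1.34 ± 0.18, limma adjusted p = 0.00375). Among 26 hedgehog, BMP and FGF genes 2 were higher (7.69%) and 3 lower (11.5%), near the shares over all transcripts. Bmp4 had 50.8 and 38.8 FPKM at E21 and 16.4 and 16.1 at P5 (log2 change -1.39 ± 0.21, limma adjusted p = 0.00583). Its antagonist Nog had 2.76 and 1.93 FPKM at E21 and 0.479 and 0.358 at P5 (log2 change -1.23 ± 0.17, limma adjusted p = 0.00458). Fgf1 had 3.11 and 2.23 FPKM at E21 and 11.9 and 9.69 at P5 (log2 change 1.69 ± 0.18, limma adjusted p = 0.00139). The hedgehog receptor Ptch1 and the inhibitor Hhip, both night-higher in the older glands, were at P5 above both E21 libraries. Ptch1 had 8.32 and 8.05 FPKM at E21 and 34.4 and 46.1 at P5, and Hhip had 1.95 and 0.629 FPKM at E21 and 17.3 and 29.3 at P5. They did not pass the main test (limma adjusted p = 0.168 and 0.0639) and passed with the 4 libraries alone (limma adjusted p = 0.00107 and 0.00155). The mediator Gli3, which mainly represses in the absence of ligand, fell, with 5.89 and 5.84 FPKM at E21 and 2.6 and 2.38 at P5 (log2 change -0.98 ± 0.18, limma adjusted p = 0.0115).

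Hormone response genes were called in both directions, with a larger share higher than over all transcripts (8.29%). Of 13 thyroid hormone genes 3 were higher (23.1%) and 1 lower (7.69%). Hr, hairless, a corepressor that thyroid hormone induces in brain, had 5.22 and 6.38 FPKM at E21 and 55.7 and 44.3 at P5 (log2 change 2.9 ± 0.21, limma adjusted p = 0.000487). Slc7a5, an amino acid transporter that also carries thyroid hormone, had 7.77 and 7.73 FPKM at E21 and 23.3 and 21.1 at P5 (log2 change 1.4 ± 0.39, limma adjusted p = 0.0485), and was called in none of the fits without 1 library. The receptors did not pass. Thra had 19 and 21.4 FPKM at E21 and 18 and 19.4 at P5 for 1 of its 2 transcripts, and Thrb had 0.063 and 0.141 FPKM at E21 and 0.186 and 0.3 at P5. Of 15 glucocorticoid genes 3 were higher (20%) and 1 lower (6.67%). Hsd11b1, which regenerates active glucocorticoid, had 0.103 and 0.32 FPKM at E21 and 2.77 and 1.96 at P5 (log2 change 1.47 ± 0.22, limma adjusted p = 0.00583). Fkbp5, a receptor co-chaperone that the hormone induces, had 11.9 and 12.1 FPKM at E21 and 31.3 and 39.2 at P5 (log2 change 1.47 ± 0.39, limma adjusted p = 0.0425), and was called in 1 of the 4 fits without 1 library. Among other targets Tsc22d3 had 12.5 and 17.1 FPKM at E21 and 8.81 and 10.7 at P5 and did not pass, and Zbtb16 fell, with 1.46 and 1.6 FPKM at E21 and 0.15 and 0.283 at P5 (log2 change -1.06 ± 0.21, limma adjusted p = 0.0147).

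Of 48 oxidative phosphorylation genes 7 were higher (14.6%, against 8.29% of all transcripts) and 0 lower, with a median of 0.46. In 32 of the 48 both P5 libraries lay above both E21 libraries, a larger share than the 30.4% of all transcripts. Cox4i1, a cytochrome oxidase subunit, had 63.1 and 59.6 FPKM at E21 and 120.5 and 115 at P5 (log2 change 0.93 ± 0.23, limma adjusted p = 0.0352). Cox8a had 35.8 and 60.9 FPKM at E21 and 324 and 293 at P5 (log2 change 2.7 ± 0.41, limma adjusted p = 0.00601). The coactivator Ppargc1a had 0.279 and 0.21 FPKM at E21 and 1.46 and 2.42 at P5 (log2 change 1.22 ± 0.21, limma adjusted p = 0.00878). Cox6c had 38.1 and 164 FPKM at E21 and 346 and 492 at P5, with the E21 libraries far apart (log2 change 2.36 ± 0.55, limma adjusted p = 0.0277). Without 1 library the count higher was 3, 6, 1 and 1. In the hypoxia and glycolysis list 6 of 26 were higher (23.1%) and 4 lower (15.4%). These counts were 1, 3, 1 and 2 higher and 1, 4, 1 and 1 lower without 1 library. The neuronal enolase Eno2 had 30.1 and 31.3 FPKM at E21 and 85.9 and 64.7 at P5 (log2 change 1.25 ± 0.22, limma adjusted p = 0.009). The hexokinase Hk2 had 3.03 and 2.6 FPKM at E21 and 11.8 and 9.15 at P5 (log2 change 1.58 ± 0.22, limma adjusted p = 0.00436). The oxygen-sensitive factor Hif1a had 66.5 and 69 FPKM at E21 and 117 and 114 at P5 (log2 change 0.77 ± 0.21, limma adjusted p = 0.0441). Among the members that fell, Vegfa had 25.1 and 24.4 FPKM at E21 and 16.3 and 16 at P5 for 1 of its 5 transcripts (log2 change -0.59 ± 0.16, limma adjusted p = 0.0462). Egln3 had 2.04 and 2.52 FPKM at E21 and 0.467 and 0.28 at P5 (log2 change -1.26 ± 0.18, limma adjusted p = 0.00496). Bnip3l had 52.4 and 42.4 FPKM at E21 and 26.1 and 29.2 at P5 (log2 change -0.75 ± 0.19, limma adjusted p = 0.0339). Cholesterol synthesis had 1 call in 19, Tm7sf2, a sterol reductase, with 2.13 and 2.5 FPKM at E21 and 13.6 and 11.7 at P5 (log2 change 2.04 ± 0.26, limma adjusted p = 0.00307).

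Of 29 genes of antigen presentation and the interferon response 7 were higher and 1 lower, mostly at low levels, and 5, 4, 3 and 3 were higher without 1 library. RT1-A2, a class I gene, had 0.0697 and 0.297 FPKM at E21 and 4.96 and 4.09 at P5 (log2 change 2.22 ± 0.26, limma adjusted p = 0.00236). The invariant chain Cd74 had 0.701 and 0.478 FPKM at E21 and 1.74 and 4.29 at P5 (log2 change 1.26 ± 0.27, limma adjusted p = 0.0199). Irf8, a myeloid and interferon regulator, had 0.987 and 1.55 FPKM at E21 and 6.96 and 7.34 at P5 (log2 change 1.86 ± 0.43, limma adjusted p = 0.0257). B2m, beta-2 microglobulin, had 62.6 and 31.8 FPKM at E21 and 75.9 and 60.4 at P5 and did not pass. Ifitm3, a membrane protein that restricts viral entry, fell, with 61.4 and 48.5 FPKM at E21 and 10.3 and 12.8 at P5 (log2 change -2.15 ± 0.22, limma adjusted p = 0.00139). Near-identical copies within the RT1 family make the split of reads between its members uncertain.

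Markers of neighbouring and infiltrating cells also moved. In the choroid plexus list, of 22 tested members 18 were higher and 0 lower, with a median of 2.43; its summed level was 1520 and 1872 FPKM at E21 and 3508 and 18830 FPKM at P5, and without Ttr 475.2 and 572.3 FPKM, then 618.8 and 1506 FPKM. Enpp2, autotaxin, had 6.69 and 27.1 FPKM at E21 and 129.5 and 497 at P5 (log2 change 4.12 ± 0.34, limma adjusted p = 0.000753). Mfrp, a membrane frizzled-related protein, had 1.03 and 5.8 FPKM at E21 and 18.5 and 74.2 at P5 (log2 change 3.37 ± 0.49, limma adjusted p = 0.00494). Sostdc1, a secreted Wnt and BMP inhibitor, had 0.394 and 4.86 FPKM at E21 and 14.8 and 65.7 at P5 (log2 change 3.51 ± 0.51, limma adjusted p = 0.0052). Folr1, the folate receptor, had 0.923 and 2.85 FPKM at E21 and 8.75 and 37.8 at P5 (log2 change 2.84 ± 0.38, limma adjusted p = 0.00344). The libraries followed the same order in each of these 4 genes, E21 mid-day lowest, then E21 mid-night, P5 mid-day and P5 mid-night. Other members are also expressed in the older glands, such as Kcne2 with 18.2 and 18.3 FPKM at E21 and 51 and 59 at P5 (log2 change 1.54 ± 0.28, limma adjusted p = 0.0106) and 46.8 and 30.8 FPKM at P40. Without 1 library the count higher was 11, 14, 18 and 13. Of 8 ependymal genes 4 were higher, or 2, 1, 5 and 1 without 1 library, with Dynlrb2 at 0.455 and 1.35 FPKM at E21 and 6.09 and 14.3 at P5 (log2 change 2.49 ± 0.24, limma adjusted p = 0.00126). Of the 826 transcripts higher at P5, 64 were at least 2-fold higher at mid-night than at mid-day within P5, and 15 of these were in the choroid plexus list and 3 in the ependymal list. In Tph1, Ddc, Gch1, Guca1b, Gngt2 and Pde6c the P5 mid-day value was the higher of the pair.

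**Figure D4:**
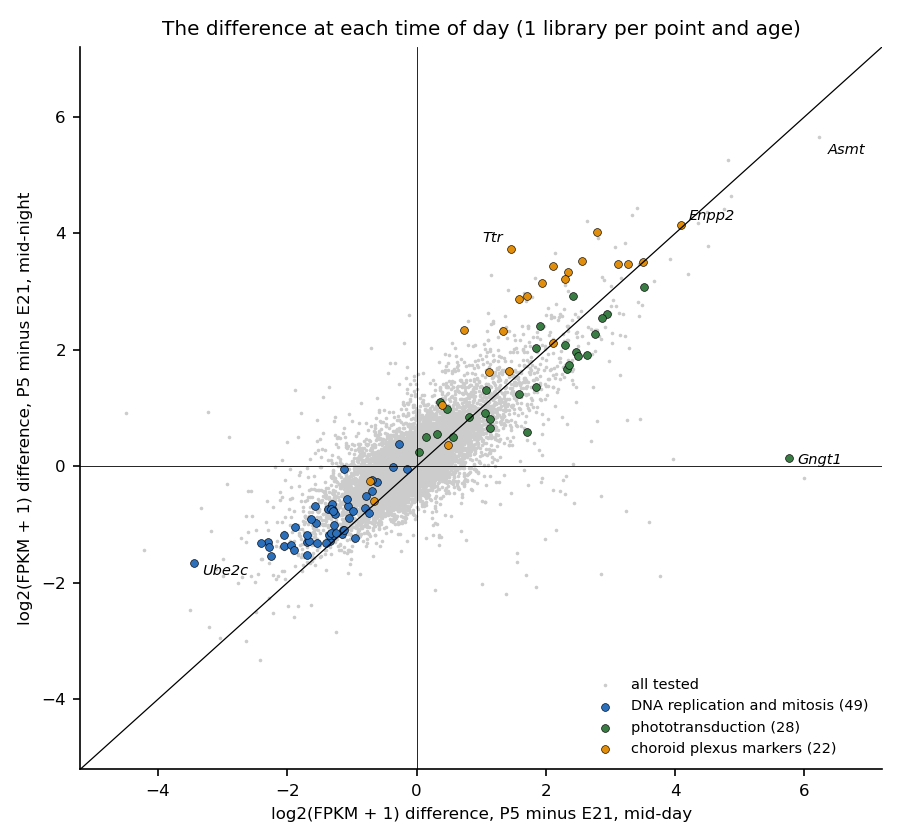
The difference P5 minus E21 on log2(FPKM + 1) at mid-day (horizontal) is plotted against the same difference at mid-night (vertical) for the 9960 tested transcripts, each axis resting on 1 library per age. Most replication genes (blue) lie in the lower left and phototransduction genes (green) in the upper right on both sides of the diagonal, while most choroid plexus markers (orange) lie above it, Enpp2 on it. Gngt1 lies far to the right with almost no difference at mid-night.

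Glial markers rose in part. Of 13 astrocyte and interstitial glia genes 6 were higher and 1 lower, but without 1 library 1, 3, 3 and 2 were higher. Clu, clusterin, had 165 and 153 FPKM at E21 and 379 and 546 at P5 (log2 change 1.51 ± 0.3, limma adjusted p = 0.0142). Apoe had 35.1 and 35.6 FPKM at E21 and 103 and 114 at P5 (log2 change 1.59 ± 0.27, limma adjusted p = 0.00856). S100b had 3.42 and 1.33 FPKM at E21 and 16.1 and 11.2 at P5 (log2 change 2.17 ± 0.28, limma adjusted p = 0.00325). Gfap was low, with 0.146 and 0.233 FPKM at E21 and 0.898 and 1.66 at P5, and did not pass, while the gap junction gene Gja1 fell, with 88.1 and 115 FPKM at E21 and 37.4 and 44.1 at P5 (log2 change -1.29 ± 0.23, limma adjusted p = 0.0108). Of 8 oligodendrocyte genes 3 were higher, and 1, 3, 1 and 1 without 1 library. Cnp, a myelin enzyme, had 2.35 and 3.21 FPKM at E21 and 8.41 and 9.28 at P5 (log2 change 1.39 ± 0.29, limma adjusted p = 0.0185). Sox10, shared with Schwann cells that accompany the ingrowing nerves, had 0.386 and 0.839 FPKM at E21 and 1.59 and 1.72 at P5 (log2 change 0.73 ± 0.19, limma adjusted p = 0.0373).

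Some connective tissue and blood markers were lower. Of 29 matrix and fibroblast genes 8 were lower (27.6%) and 0 higher, with a median of -0.43 and with counts of 4, 3, 1 and 3 without 1 library. Col1a1, a chain of type I collagen, had 174 and 269 FPKM at E21 and 82.8 and 119.7 at P5 (log2 change -1.11 ± 0.31, limma adjusted p = 0.0493). Postn, periostin, had 177 and 163 FPKM at E21 and 66.7 and 59.5 at P5 (log2 change -1.42 ± 0.18, limma adjusted p = 0.00281). Col4a1, a basement membrane collagen, had 33.7 and 50.3 FPKM at E21 and 29.9 and 35.5 at P5 and did not pass. Of 18 endothelial genes 2 were lower (11.1%, against 6.84% of all transcripts), Angpt2 with 5.74 and 6.69 FPKM at E21 and 2.5 and 2.29 at P5 (log2 change -1.09 ± 0.21, limma adjusted p = 0.0145) and Vegfa, and without 1 library 1, 0, 0 and 0 were. Pecam1 had 5.1 and 8.97 FPKM at E21 and 5.35 and 6.36 at P5 and did not pass, and none of 9 smooth muscle and pericyte genes was called. The smooth muscle and pericyte markers summed to 60.9 and 79.2 FPKM at E21 and 93.1 and 91 FPKM at P5. Of 7 erythroid genes tested 2 were lower, and 0, 1, 0 and 1 without 1 library. Erythroid transcripts summed to 12290 and 7133 FPKM at E21 and 2293 and 2961 FPKM at P5. Hba-a2, an alpha globin, had 8340 and 3310 FPKM at E21 and 971 and 973 at P5 (log2 change -2.43 ± 0.52, limma adjusted p = 0.0192), with E21 mid-day highest. Without Hba-a2 the erythroid sum was 3949 and 3823 FPKM at E21 and 1321 and 1987 FPKM at P5. Near-identical globin copies make the split between them uncertain.

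**Figure D5:**
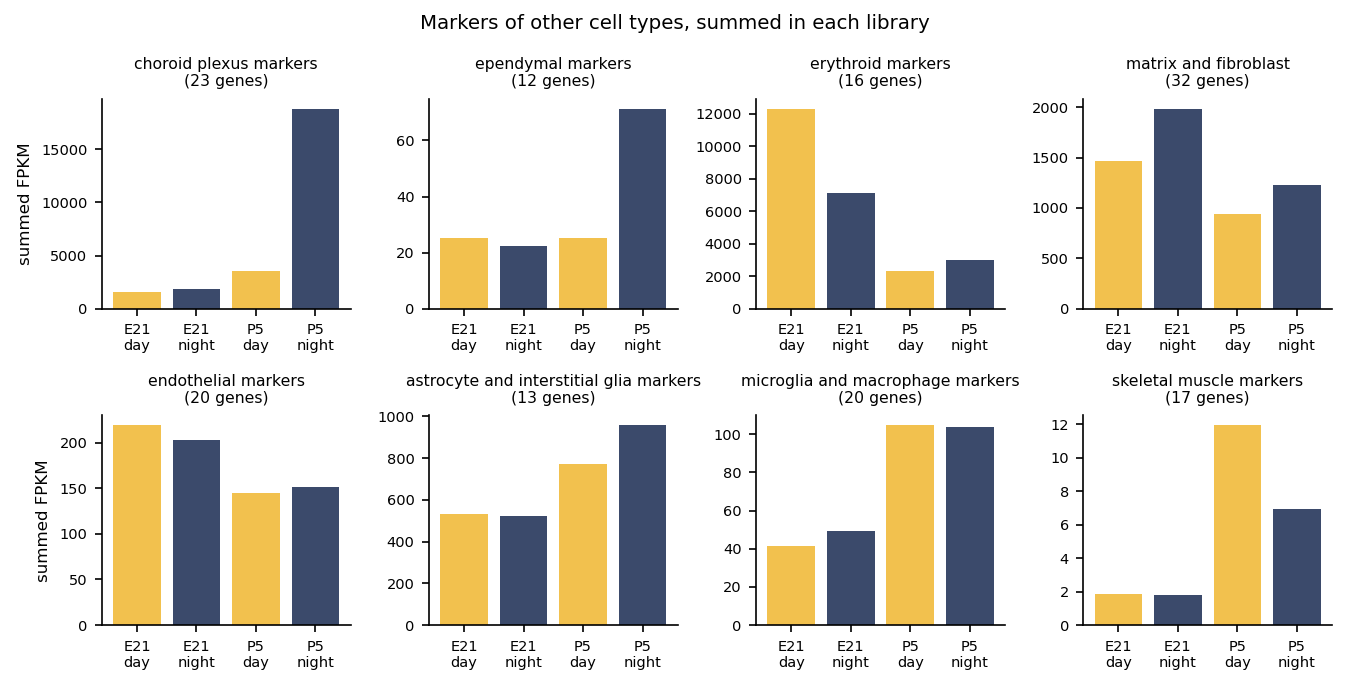
Bars give the summed FPKM of marker lists of other cell types in each of the 4 libraries, mid-day in yellow and mid-night in blue, on axes that start at 0 and differ between panels. The choroid plexus sum, most of it Ttr, is 18830 FPKM at P5 mid-night against 1520 to 3508 FPKM in the other 3 libraries, and the erythroid sum is highest at E21 mid-day. Without Hba-a2 the erythroid sum is 3949 and 3823 FPKM at E21 and 1321 and 1987 FPKM at P5. Lgals3 makes up much of the P5 microglia sum and Tnnc2 most of the P5 muscle sum.

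The microglia and mast cell lists each held 1 gene that was called higher. Of 14 microglia and macrophage genes tested, 1 was higher (7.14%), 2 were lower (14.3%) and 11 did not pass, with a median of -0.16. Of 7 mast cell genes tested, 1 was higher (14.3%), 3 were lower (42.9%) and 3 did not pass, with a median of 0.03. Lgals3, galectin-3, is listed with macrophages and had 2.53 and 2.09 FPKM at E21 and 78 and 62.5 at P5 (log2 change 4.42 ± 0.28, limma adjusted p = 0.00032), but the other 19 microglia and macrophage genes summed to 38.94 and 47.25 FPKM at E21 and 26.72 and 41.67 FPKM at P5. Aif1 fell, with 4.66 and 2.96 FPKM at E21 and 1.44 and 1.76 at P5 (log2 change -0.87 ± 0.21, limma adjusted p = 0.032). C1qc fell, with 7.54 and 6.14 FPKM at E21 and 1.7 and 2.77 at P5 (log2 change -1.29 ± 0.22, limma adjusted p = 0.00912). Fcer1a, the alpha chain of the high-affinity IgE receptor, which mast cells carry, had 0.907 and 0.697 FPKM at E21 and 52.7 and 63.9 at P5 (log2 change 5.04 ± 1.18, limma adjusted p = 0.0277). In the older glands Fcer1a had 7.57 and 166 FPKM at P20 and 2.28 and 104 at P40, night differences that enter its SE. It was called in 1 of the 4 fits without 1 library, with a log2 change of 3.36 to 6.71 and a limma adjusted p of up to 0.224. The defining mast cell proteases fell to under 1 FPKM. Cpa3 had 2.32 and 4.37 FPKM at E21 and 0.595 and 0.506 at P5 (log2 change -1.45 ± 0.23, limma adjusted p = 0.00675). Cma1 had 1.41 and 3.51 FPKM at E21 and 0.309 and 0.256 at P5 (log2 change -1.36 ± 0.26, limma adjusted p = 0.0129) and Tpsab1 2.36 and 3.09 FPKM at E21 and 0.156 and 0.512 at P5 (log2 change -1.49 ± 0.17, limma adjusted p = 0.00225). Kit, a growth factor receptor of mast cells and other cells, had 44.3 and 39.9 FPKM at E21 and 43.1 and 42.9 at P5 and did not pass (log2 change 0.03 ± 0.2). Mast cell markers other than Fcer1a summed to 53.3 and 56.6 FPKM at E21 and 47.9 and 47.2 FPKM at P5, most of it Kit. Without Kit as well, the sums were 9.03 and 16.7 FPKM and then 4.81 and 4.32 FPKM. Of 17 skeletal muscle genes 1 was tested and higher, Tnnc2, a fast troponin, with 0.327 and 0.452 FPKM at E21 and 9.83 and 5.31 at P5 (log2 change 2.57 ± 0.26, limma adjusted p = 0.00134), and the other 16 summed to at most 2.11 FPKM in each of the 4 libraries. Of 4 melanin pathway genes tested in this albino strain 2 were lower, Pmel with 18.7 and 15.6 FPKM at E21 and 5.15 and 6.05 at P5 (log2 change -1.46 ± 0.19, limma adjusted p = 0.00314) and Tyrp1 with 8.12 and 4.3 FPKM at E21 and 2.11 and 2.29 at P5 (log2 change -1.12 ± 0.25, limma adjusted p = 0.0231). The summed level of this list was 56.2 and 39.9 FPKM at E21 and 37.5 and 42 FPKM at P5.

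Of 6 tested markers of habenula, cerebellar and other brain neurons 2 were lower and 1 higher. Pcp4, abundant in habenula and cerebellum, had 313 and 488 FPKM at E21 and 49.7 and 60.4 at P5 (log2 change -2.81 ± 0.19, limma adjusted p = 0.000412), a fold of means of 7.28 in favour of E21. Tac1, the substance P precursor, had 1.78 and 2.68 FPKM at E21 and 0.569 and 0.513 at P5 for 1 of its 4 transcripts (log2 change -1.05 ± 0.19, limma adjusted p = 0.0105), and calbindin (Calb1) rose, with 7.72 and 4.08 FPKM at E21 and 18.2 and 19.6 at P5 (log2 change 1.58 ± 0.24, limma adjusted p = 0.00622).

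Among the largest changes were genes outside these lists. Alox15, a lipoxygenase, had 2.97 and 3.8 FPKM at E21 and 107 and 102 at P5; the increase went on to 256 and 260.5 FPKM at P20 (log2 change 4.59 ± 0.2, limma adjusted p = 7.31e-05). Miox, myo-inositol oxygenase, had 1.24 and 1.9 FPKM at E21 and 49.7 and 39 at P5 (log2 change 4.14 ± 0.24, limma adjusted p = 0.000291). Pgam2, the muscle-type phosphoglycerate mutase, had 0.353 and 0.152 FPKM at E21 and 11.7 and 15.5 at P5 (log2 change 3.53 ± 0.22, limma adjusted p = 0.000291). Sncb, beta-synuclein, had 1.19 and 1.61 FPKM at E21 and 39.4 and 24.9 at P5 (log2 change 3.76 ± 0.33, limma adjusted p = 0.000843). Eef1a2, the elongation factor isoform of mature neurons and muscle, had 0.875 and 0.976 FPKM at E21 and 22.9 and 16.9 at P5 (log2 change 3.43 ± 0.4, limma adjusted p = 0.0022). In the other direction Nkain3, a sodium pump interacting protein, had 8.63 and 10.5 FPKM at E21 and 0.169 and 0.48 at P5 (log2 change -3 ± 0.19, limma adjusted p = 0.000291). Pik3r1, the regulatory subunit of PI3 kinase, had 44.2 and 41 FPKM at E21 and 7.09 and 6.44 at P5 (log2 change -2.49 ± 0.2, limma adjusted p = 0.000722). Bhlhe22, a bHLH repressor of neuronal fate, had 5.64 and 5.38 FPKM at E21 and 0.363 and 0.323 at P5 (log2 change -2.28 ± 0.18, limma adjusted p = 0.00059). Lypd6b had 10.8 and 17.1 FPKM at E21 and 1.52 and 2.15 at P5 (log2 change -2.37 ± 0.24, limma adjusted p = 0.00139). In each of these 9 genes the call held in all 4 fits without 1 library. No overlap between the ages was a condition for choosing them, so it adds nothing here.

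The calls differed in how far they rested on 1 library. Of the 182 genes chosen for naming and called, 77 were called in each of the 4 fits that left out 1 library of E21 or P5, and 27 in none of them. Of the genes described above, those called in none of these fits were Atp1b2, Chrna3, Clu, Col1a1, Cox4i1, Dnmt1, Gli3, Hif1a, Lhx4, Maob, Neurod4, Notch1, Npas2, Pdc, Slc7a5, Snap25, Tubb5 and Vegfa. Those called in 1 of the 4 were Adcy8, Aif1, Angpt2, Bnip3l, Chrnb4, Cnp, Cox6c, Dlk1, Fcer1a, Fkbp5, Fzd1, Fzd4, Gja1, Grb10, Hba-a2, Igfbp3, Kcnd2, Lmnb1, Marcksl1, Nptx1, Nrl, Ntf3, Pax6, Pde4b, Sox10, Sst, Tph1, Ttr and Zbtb16. With the 4 libraries of E21 and P5 alone the calls of Atp1b2, Hba-a2, Hif1a, Neurod4, Snap25, Ttr, Tubb5 and Vegfa were lost, with limma adjusted p-values of 0.0524 (Snap25) to 0.2 (Ttr).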

How the data were processed

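RNA of pooled rat pineal glands was sequenced, 1 library per age and time of day. The authors deposited FPKM values per RefSeq transcript; TopHat 1.3.1, Cufflinks 1.2.0 and genome build rn4 are named in the submitters' processing notes. Read totals are not used here. Relative depth was estimated from the low nonzero FPKM values of 1192 short olfactory receptor transcripts, scaled by genomic span, and gives no count per gene.

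Of 16932 transcripts, 9960 with at least 1 FPKM in 2 or more of the 8 libraries were tested on log2(FPKM + 1) with limma 3.58.1 in R 4.3.3 (moderated statistics with a mean-variance trend), with age and time of day as terms, over all 8 libraries, for P5 minus E21. P-values were adjusted by the Benjamini-Hochberg method over all tested transcripts, with a threshold of 0.05. The test was checked on simulated data. The model has 3 residual degrees of freedom, and nothing says that the libraries of an age are separate replicates of 1 condition, since they differ in time of day. P-values therefore rest on how far the night difference varied between the ages, P20 and P40 included, moderated by the spread of other transcripts. They do not measure the spread between like pools.

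Named genes were the 15 largest increases and 15 largest decreases past the test, with no overlap between ages and a mean of at least 5 FPKM in the higher age, up to 4 called members per list by level, and a set of genes always given. Other list members were chosen after their values were seen. The members and lists were chosen with earlier results of these data known. Alternatives covered the pseudocount, the filter, normalisation, the libraries and terms in the model, and leaving out each library of E21 and P5. Promoter windows and motifs were read from RefSeq (GRCr8), matched by gene symbol, on both strands.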

Additional observations from a re-analysis of the deposited data

Results flagged for a closer look

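For some named genes that did not pass the test, the difference between P5 and E21 had opposite signs at the 2 times of day. Each difference rests on 1 library per age and time, and its dependence on time of day was not tested. For Dio2 the mid-day log2 difference was -0.12 and the mid-night one 0.25, 0.37 apart. For Efna5 the mid-day log2 difference was -0.22 and the mid-night one 0.15, 0.37 apart. For Impg2 the mid-day log2 difference was 0.22 and the mid-night one -0.08, -0.297 apart. For Kit the mid-day log2 difference was -0.04 and the mid-night one 0.10, 0.14 apart. For Ncam1 the mid-day log2 difference was 0.01 and the mid-night one -0.09, -0.0958 apart. For Pclo the mid-day log2 difference was 0.23 and the mid-night one -0.07, -0.298 apart. For Pecam1 the mid-day log2 difference was 0.06 and the mid-night one -0.44, -0.49 apart. For Sema3a the mid-day log2 difference was -0.25 and the mid-night one 0.16, 0.41 apart. For Tyms the mid-day log2 difference was -0.27 and the mid-night one 0.38, 0.65 apart.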

How the results depend on the processing

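The total called stayed within 1.5 times of 1507 under every alternative other than leaving out 1 library. Over the 4 fits without 1 library of E21 or P5 it ranged from 484 to 923, with 337 to 499 higher and 123 to 424 lower. With a filter of 5 FPKM in 2 or more libraries fewer transcripts were tested (6520) and 412 were lower. Time of day, the label behind the replicate numbers, was in the model as the block. Without this replicate block 1287 were called, 692 higher and 595 lower. After quantile normalisation 919 were higher and 993 lower, with a pseudocount of 5 there were 686 and 776, and with 0.1 there were 863 and 479. Leaving out transcripts that span under 2 kb, an alternative chosen after seeing the data, gave 846 higher and 699 lower.

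Of 182 named genes that were called, 174 kept the call after quantile normalisation, 169 with the 4 libraries alone, 165 without the block and 133 without a filter on low values. Without the mid-day and the mid-night library of E21, and then those of P5, 105, 131, 92 and 105 kept it. No called gene changed sign under any of these alternatives. Named genes that did not pass and whose log2 change took the other sign did so without E21 mid-day for Per2 (0.303), Ccnd2 (0.15), Efna5 (0.43), Impg2 (-0.11), Pclo (-0.17), Sema3a (0.25) and Slc17a6 (0.12), and without E21 mid-night for Bsx (-0.47), Dio2 (-1.18), Per1 (-0.296), Ccnd1 (0.0543), Col4a1 (0.0246), Ncam1 (0.0039), Pecam1 (0.0919), Thra (0.0471) and Tyms (-0.11), and without P5 mid-day for Crx (-0.13), Bsx (-0.0601), Dio2 (-0.93), Per1 (-0.22), Ccnd1 (0.13), Bsn (-0.0242) and Thra (0.0069), and without P5 mid-night for Per2 (0.19), Efna5 (0.18), Kit (-0.0843), Slc17a6 (0.0318) and Tyms (-0.22), and after quantile normalisation for Crx (-0.0664), Dio2 (-0.17), Impg2 (-0.26), Kit (-0.15), Map1b (-0.0575) and Thrb (-0.0359). Over the 4 fits without 1 library the log2 change ran, for each of the genes so affected, as follows: Bsn -0.0242 to 0.59, Bsx -0.47 to 1.6, Ccnd1 -0.32 to 0.13, Ccnd2 -0.52 to 0.15, Col4a1 -0.68 to 0.0246, Crx -0.13 to 0.71, Dio2 -1.18 to 1.3, Efna5 -0.499 to 0.43, Impg2 -0.11 to 0.24, Kit -0.0843 to 0.15, Ncam1 -0.0866 to 0.0039, Pclo -0.17 to 0.33, Pecam1 -0.47 to 0.0919, Per1 -0.296 to 1.15, Per2 -0.79 to 0.303, Sema3a -0.34 to 0.25, Slc17a6 -1.4 to 0.12, Thra -0.25 to 0.0471, Tyms -0.22 to 0.32. In a fit without 1 library the missing value is replaced through the night effect of the other 3 ages, so these values carry the night differences of P20 and P40 and do not isolate the left-out library. For Dio2, as an example, P5 minus E21 within the 4 libraries came to -0.12 for mid-day and 0.25 for mid-night. The cause of the sign changes after quantile normalisation was not tested. Depth limits transcripts near 1 FPKM, where E21 mid-day, the shallowest of the 4 libraries by the estimate, carries the fewest reads.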

Other observations

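Some increases were transient. Of the 826 transcripts higher at P5, 63 were in all P20 and P40 libraries below 50% of the lower P5 library, among them the choroid plexus markers Mfrp, Sostdc1 and Folr1. Of the 64 that were at least 2-fold higher at mid-night than at mid-day within P5, 39 showed this later fall. Of the 681 transcripts lower at P5, 263 were under 1 FPKM in all 4 libraries of P20 and P40, among them Tubb2b, Grm6, Top2a, Lhx9 and Pcsk2.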
